A study of Mus musculus with 2 samples.

Results

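The replication-dependent histone genes were taken as the protein-coding genes whose symbols begin with Hist1h, Hist2h, Hist3h or Hist4h in the GENCODE M21 mouse annotation. The annotation holds 67 such genes, and 64 of them were matched by gene identifier among the 21474 protein-coding genes of the deposited gene tables. The 3 not matched, Hist1h2bm, Hist1h2bh and Hist2h2bb, all encode H2B. The 64 members comprised 6 H1, 18 H2A, 15 H2B, 12 H3 and 13 H4 genes.

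The tissue was intestine of the mouse strain B6NCrl, taken at embryonic day 16.5 from pooled males and females, and no treatment is named. The single group held 2 libraries. Replicate 2 came from 41 pooled embryos, and how many went into replicate 1 is not stated. Both replicates carry the same donor identifier and separate tissue sample identifiers, and both are labelled as pooled tissue, so the spread is that between these 2 samples. Each library was made from 10 ng of total RNA above 200 nt with spike-in transcripts added, and the labels link to the manual of the SMARTer Ultra Low RNA Kit, a kit known to prime cDNA with oligo(dT). With 2 libraries of 1 group, no test between groups was possible, and values are given for both libraries or as a mean with SD.

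Replication-dependent histone genes supply the core histones H2A, H2B, H3 and H4 and the linker histone H1 that package newly copied DNA, and their mRNAs accumulate in cells in S phase. These mRNAs are unusual in that most end in a conserved stem-loop and carry no poly(A) tail. The stem-loop is bound by the protein SLBP, and a complex containing the U7 small RNA guides the cleavage just after it. Replacement histones such as H3.3 and H2A.Z come from other genes, most of which give polyadenylated mRNAs through the cell cycle. The libraries are described as total RNA while the linked kit primes on runs of A, and how far this set the levels of members without a tail was not tested.

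The sequence that ends these mRNAs is shown first because its forms differ between H4 genes and the other classes, and because Hist1h2ap, the most abundant member, and its near copy Hist1h2ao share a long run of A before it. The stem-loop was searched on the sense strand of the GENCODE M21 transcripts as a 16-base motif read 5′ to 3′: GG, any 2 bases, CTT, any base, T, any base, AG, any base, GCC. Each line below holds the 14 bases before the stem-loop in lower case and the 16-base stem-loop in capitals, 5′ to 3′ on the mRNA strand.
Hist1h2ap: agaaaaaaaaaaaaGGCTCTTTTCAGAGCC
Hist1h2ao: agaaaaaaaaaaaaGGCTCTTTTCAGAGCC
Hist1h2ae: gtaaaaaaaacaaaGGCTCTTTTCAGAGCC
Hist1h3c: gctatttaaaaaaaGGCTCTTTTAAGAGCC
Hist1h1c: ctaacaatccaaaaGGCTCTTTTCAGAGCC
Hist3h2ba: gcccccaacccaaaGGCTCTTTTCAGAGCC
Hist1h4d: acccaaaaaccaaaGGCCCTTTTCAGGGCC
Hist1h4i: caatgctacttaaaGGCCCTTTTTAGGGCC

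On mm10 the Hist1h2ap site lies in the 3′ UTR at chr13:21833029-21833058 on the minus strand, and that of Hist1h4d lies at chr13:23581936-23581965 on the plus strand. A match was present in 44 of the 67 annotated members, 42 of them in the gene tables, against 36 of 58725 other protein-coding transcripts (0.0613%). The form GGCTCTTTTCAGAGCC was held by 26 members, 3 of H1, 10 of H2A, 8 of H2B and 5 of H3, and by no H4 gene. All 7 members with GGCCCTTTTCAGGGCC and both with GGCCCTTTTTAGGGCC were H4 genes. The remaining stem-loops were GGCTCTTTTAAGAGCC in 6 members and 3 forms held by 1 member each.

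Many members without a match had gene models too short to hold one. For 45 members the leading transcript had the same length in GENCODE M4, used for the deposited tables, and in M21. Of these, 25 held a match, and 15 others ended within 2 bases of the stop codon, so that no 3′ UTR was left to search. Hist1h3i, the highest H3 gene, was among the models that stop at the stop codon. The M21 model of Hist1h2bc, the highest H2B gene, has 2 exons and 742 bases after the stop codon, none of which matched the motif. This model is longer than the one used for the tables, at 1156 against 736 bases.

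Transcripts of the family were present in both libraries and were very unevenly spread. TPM is a transcript abundance that scales counts by transcript length and by library size. The members summed to 3358 TPM in replicate 1 and 2909 in replicate 2, a mean of 3134 ± 317 (SD, n = 2). They took 0.0998% and 0.0862% of all expected counts, which are estimated read counts that divide shared reads between genes. A single gene, Hist1h2ap, held 72.4% and 71.3% of the members' TPM. Without it the sum was 927 and 836 TPM.

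Most members were low. With detection set at 1 TPM or more in both libraries, 48 of 64 members (75.0%) were detected, against a background of 62% of all protein-coding genes. The median member stood at 3.61 TPM in replicate 1 and 3.13 in replicate 2, below the medians of 4.46 and 4.44 over all protein-coding genes. Mean TPM reached 100 in 3 members, Hist1h2ap, Hist1h4d and Hist1h2bc, and 10 or more in 19. A further 31 lay between 1 and 10, and 14 lay under 1.

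**Figure D1:**
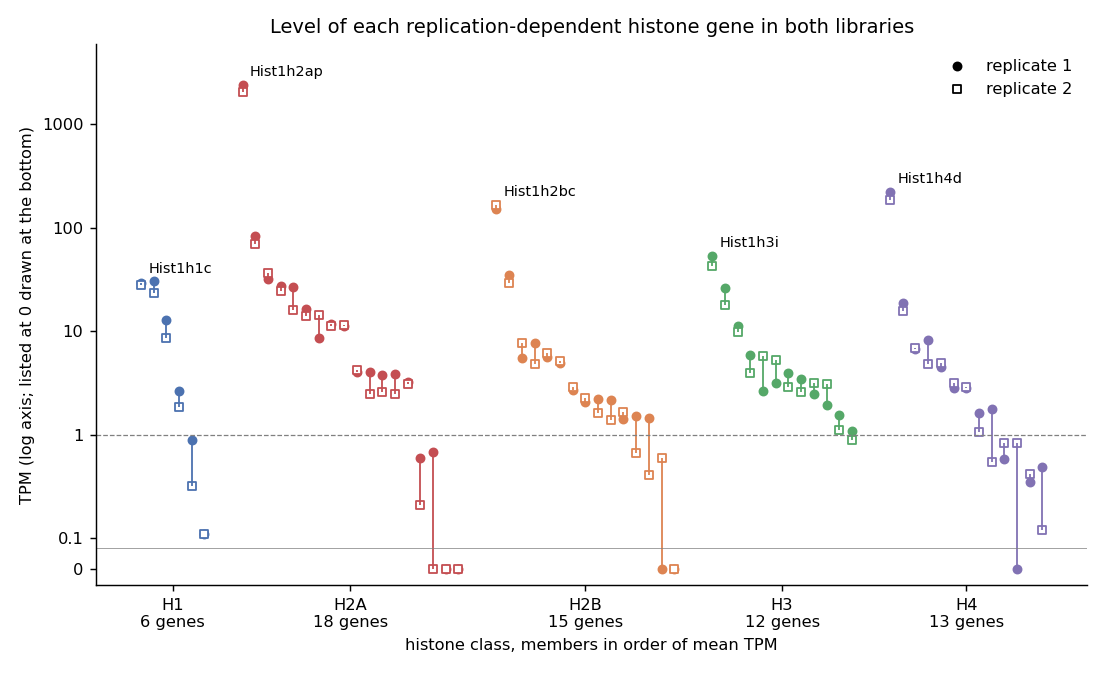
TPM on a log axis for each of the 64 members, grouped by histone class and ordered by mean TPM, with filled circles for replicate 1, open squares for replicate 2 and a line joining them. Values listed at 0 are drawn at the bottom, the dashed line marks 1 TPM, and 1 gene lies far above the rest in H2A (Hist1h2ap) and in H4 (Hist1h4d).

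The linker histone H1 compacts chromatin between nucleosomes. Its 6 genes summed to 69.3 ± 9.93 TPM, and 4 were detected. On the TPM scale no single H1 gene led: Hist1h1c stood at 29.6 and 28.2 TPM in replicates 1 and 2, and Hist1h1e at 30.3 and 23.3. Their order turned between the libraries. Without division by length, Hist1h1c, whose transcript is longer, led in both libraries with 59.0% and 65.1% of the class. Hist1h1b followed at 12.7 and 8.53, and Hist1h1d at 2.67 and 1.84. Hist1h1a was at 0.88 and 0.32, and Hist1h1t, the H1 gene of the testis, at 0.11 in both libraries.

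H2A forms a dimer with H2B in the nucleosome. The 18 H2A genes summed to 2479 ± 270 TPM, of which 14 were detected, and this class held 79.5% and 78.6% of the members' TPM. Hist1h2ap stood at 2430.4 TPM in replicate 1 and 2074 in replicate 2, from 27387 and 22693 counts, and ranked 22 among the protein-coding genes by mean TPM. It held 91.0% and 90.6% of the class. By TPM the next H2A gene was Hist1h2ae, at 84.4 and 70.0. The distance from first to second was 28.8-fold and 29.6-fold. Without division by length, Hist3h2a, whose transcript is longer, came second in both libraries. It had 1646 and 1446 counts, against 896 and 721 for Hist1h2ae.

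The other H2A genes with a mean of at least 10 TPM came from the Hist1, Hist2 and Hist3 clusters. Hist2h2aa2 stood at 32.4 and 37.0 TPM, and Hist2h2aa1, a near copy of it, at 11.2 and 11.6. Hist3h2a stood at 27.3 and 24.7, Hist1h2ag at 26.7 and 15.9, and Hist1h2ab at 16.5 and 14.1. Hist1h2ai was at 8.65 and 14.4, and Hist1h2ak at 11.8 and 11.3. Each of these 7 genes lay below Hist1h2ae in TPM in both libraries. The other 9 H2A genes lay between 0 and 4.20 TPM in every library, and Hist1h2aa, an H2A gene of the testis, had no count in either.

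The H2B genes summed to 229 ± 5.01 TPM, with 11 of 15 detected. Among these 11, Hist1h2be passed the limit through a transcript with no annotated coding sequence, at 1.71 and 1.01 TPM. Its coding transcripts were at most at 0.47 and 0.38. Hist1h2bc led with 153 TPM in replicate 1 and 167 in replicate 2, 67.9% and 71.9% of the class. Hist3h2ba was second at 34.9 and 29.6, so the distance from first to second was 4.38-fold and 5.64-fold. Without division by length, Hist2h2be, whose transcript is longer, passed Hist3h2ba in replicate 2, with 448 counts against 435. The 13 H2B genes below Hist3h2ba by TPM lay between 0 and 7.70 TPM. Among them, the testis gene Hist1h2ba had no count in either library.

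H3 carries many of the marked lysines of the nucleosome tail. Its 12 genes summed to 108 ± 12.2 TPM, and 11 were detected, the exception being Hist1h3f at 1.08 and 0.89. Hist1h3i led at 53.4 and 43.2 TPM, 45.7% and 43.3% of the class, followed by Hist2h3b at 26.3 and 18.1 and Hist1h3d at 11.1 and 9.77. The lead was 2.03-fold and 2.39-fold, smaller than in H2A, H2B or H4 in both libraries. The other 9 H3 genes lay between 0.89 and 5.93 TPM.

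H4 pairs with H3 at the core of the nucleosome. The 13 H4 genes summed to 249 ± 30.1 TPM, and 8 were detected. Hist1h4d stood at 222 and 185 TPM, which was 82.0% and 81.4% of the class. Hist1h4i followed at 18.6 and 15.9, 11.9-fold and 11.7-fold below. Part of this distance comes from length, as Hist1h4d was scaled by 393 bases and Hist1h4i by 727. Their counts were 1917 and 1555 against 344 and 285. The other 11 H4 genes lay between 0 and 8.19 TPM, with Hist4h4, the only member on chromosome 6, at 0.35 and 0.42.

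Hist1h2ao, Hist1h2aa and Hist1h2ba were the 3 members listed at 0 counts in both libraries. For Hist1h2aa and Hist1h2ba, a count of 0 allows up to 3 counts, or 0.350 and 0.358 TPM in replicate 1, and this limit covers counting error only. The 0 of Hist1h2ao differs in kind, because its transcript repeats that of Hist1h2ap. The 482-base Hist1h2ap and the 480-base Hist1h2ao transcripts share an identical stretch of 452 bases, which includes the whole coding sequence. Hist1h2ap has 30 further bases before the stretch, and Hist1h2ao has 28 after it. The deposited interval for Hist1h2ao reached 5.10 TPM in replicate 1 and 4.45 in replicate 2, while that of Hist1h2ap ran from 2350 to 2410 and from 2002 to 2057.

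Single-gene values therefore rest on how shared reads were divided. In Hist1h2ap, 7.83% of 100-base windows occurred in no other gene's transcripts, and 17 other genes shared windows with it. The coding sequences of 10 other H2A genes of the Hist1 cluster could be compared with it base by base, and they were 97.2% to 100% identical. Over the 45 members whose model kept its length, the median share of windows held by 1 gene was 47.9%, and 14 members were under 25%. By class the median was 23.8% in H2A, 34.9% in H3, 53.6% in H2B, 68.2% in H4 and 97.5% in the 2 H1 genes measured. Of the other leading genes, Hist1h4d had 100% of its windows to itself in the longer M21 model and Hist1h2bc 74.6%. Hist1h3i had 31.4%, sharing most often with Hist1h3h. Hist2h2aa2 had 0% of its windows to itself, and the M21 gene Gm20634 held all 429 of them. Gm20634 also held 430 of the 487 windows of Hist2h2aa1 and 300 of the 389 of Hist2h3b, the second H3 gene.

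Among the members with a match, Hist1h2ap and its near copy Hist1h2ao were set apart by the bases before the stem-loop, printed above. Members without a match could not be compared. A run of 12 A stood there, directly before the stem-loop, in Hist1h2ap and Hist1h2ao. In the other 40 members with a match in the gene tables, the longest run within those 14 bases was 8 A in Hist1h2ae, 7 A in Hist1h3c and 5 A or fewer in 38. The 38 ranged from 0.11 to 203 TPM with a median of 3.35. Hist1h2ae, with 8 A, had the second highest H2A level by TPM, 77.2 in the mean of both libraries. By counts the second H2A gene was Hist3h2a, with a longest run of 3 A. Hist1h3c, with 7 A, stood at 4.93 TPM. Anywhere in the transcript, a run of 12 or more A occurred in 5.31% of other protein-coding transcripts and, among members, also in Hist1h2ac. That gene had a run of 15 A elsewhere in its longer M21 model and stood at 3.86 and 2.49 TPM. This feature was looked at after the levels were known, and the part of the run in the measured level was not tested. The M21 models of many of these members differ in length from those used for the tables. Hist1h2ae, Hist1h3c and Hist1h4d are among them, as are others with runs of 5 A or fewer.

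**Figure D2:**
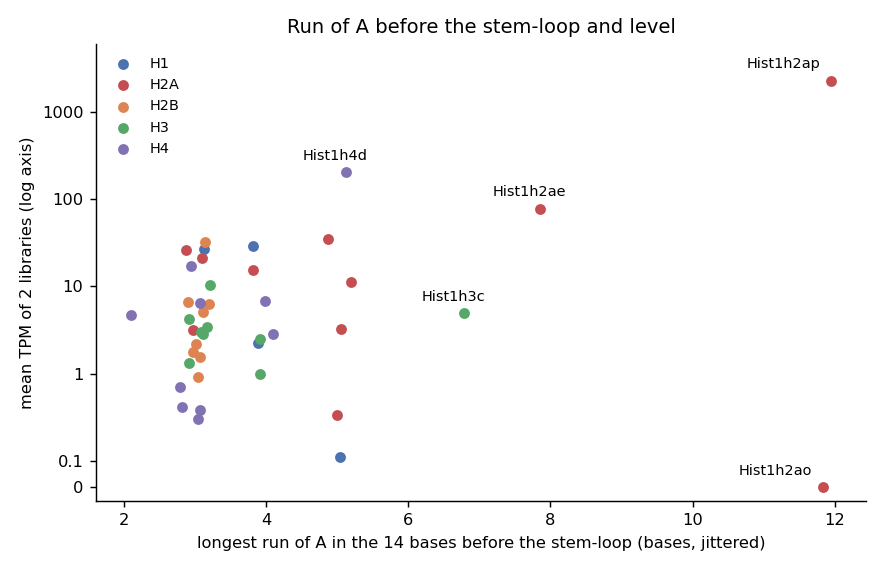
Mean TPM of both libraries on a log axis against the longest run of A in the 14 bases before the stem-loop, for the 42 members with a match, coloured by class and spread sideways to separate points. Hist1h2ap and Hist1h2ao share a run of 12, and their levels are 2252 TPM and 0, while 38 members have runs of 5 or fewer.

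High and low members lay side by side in the clusters. The Hist1 cluster on chromosome 13 held 52 members and 95.5% and 95.2% of the members' TPM. The 9 Hist2 members on chromosome 3 held 2.64% and 2.91%, and the 2 Hist3 members on chromosome 11 held 1.85% and 1.87%. Gaps of over 100 kb divide Hist1 into 4 blocks. The block of 17 members from Hist1h2bl to Hist1h2br (chr13:21715763-21837530) held Hist1h2ap and 2543 and 2177 TPM, but its median member was at 2.72 and 3.12 TPM. The block of 28 members from Hist1h4h to Hist1h1a summed to 601 and 544 TPM with medians of 3.29 and 2.74. The pair Hist1h2ba and Hist1h2aa at the far end had no count.

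**Figure D3:**
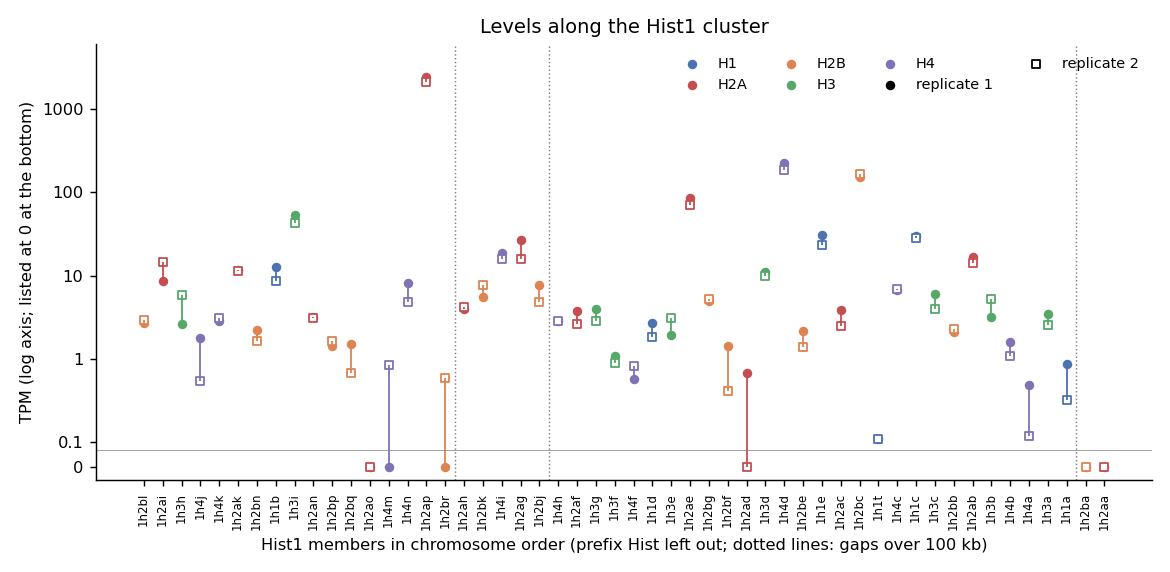
TPM on a log axis for the 52 Hist1 members in chromosome order, coloured by class, with filled circles for replicate 1, open squares for replicate 2 and dotted lines at gaps over 100 kb. High members such as Hist1h2ap, Hist1h4d and Hist1h2bc stand beside members near or under 1 TPM.

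H2A and H2B genes often lie head to head and share the stretch between their starts. Of 12 such pairs with starts 175 to 305 bases apart, the H2A gene was higher in both libraries in 6 and the H2B gene in 5, and 1 pair was at 0. The deposited intervals lay apart in both libraries for 4 of the 6 and 1 of the 5, and the pair of Hist1h2ao and Hist1h2bq rests on the division of reads with Hist1h2ap. Levels within a pair could differ widely. Hist1h2ac stood at 3.86 and 2.49 TPM beside its partner Hist1h2bc at 153 and 167. Hist1h2ae stood at 84.4 and 70.0 beside Hist1h2bg at 4.89 and 5.21. Hist1h2ap stood beside Hist1h2br, which was listed under its own identifier at 0 in replicate 1 and at 0.59 TPM in replicate 2. A single-exon transcript of Hist1h2br under another identifier was at 2.88 and 1.85 TPM.

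Promoter sequences from RefSeq (GRCm38.p6, 250 bases before to 50 after each gene start) were matched for 59 members and searched on both strands. The letters TATAAA, the core of the TATA box, were present in 35 of the 59 (59.3%) and in 14.1% of 26966 other promoters. The letters CCAAT were present in 50 (84.7%) and in 37.8% of the others. Classes differed in CCAAT: it was found in 6 of 6 H1, 18 of 18 H2A, 13 of 13 H2B and 10 of 10 H3 promoters but in 3 of 12 H4 promoters. The windows of H2A and H2B genes that lie head to head overlap, and both strands were searched. The same letters can therefore count for both genes of a pair, and these counts are not of separate sequences. A match describes letters in the window and was not tied to binding or to level.

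Replacement histones gave the members a scale within the same tissue. On the log2 scale, the summed TPM of H1 members minus that of the replacement H1 genes was -2.32 ± 0.17 (SD, n = 2), and for H3 it was -4.78 ± 0.06. For H2A it was 0.26 ± 0.05, with members at 2669 and 2288 TPM and replacement genes at 2170 and 1955. Taking out Hist1h2ap turned the H2A value to -3.19, so its sign rests on that gene. Counts scaled to library size alone, with no division by length, also turned it, to -1.18.

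The replacement genes themselves were led by H3f3a and H3f3b, which encode H3.3, at 1534 and 1178 TPM in replicate 1 and 1407 and 1053 in replicate 2. H3f3c, annotated in M21 as a processed pseudogene, was listed at 273 and 242, and Cenpa, the centromeric H3, at 138 and 124. H2afz, one of the H2A.Z genes, stood at 1207 and 1045 TPM. H2afv, the other H2A.Z gene, was at 354 and 335, and H2afx, whose protein is phosphorylated at DNA breaks, at 239 and 228. The macroH2A gene H2afy was at 209 and 199, H2afy2 at 65.7 and 57.0, and H2afj at 95.0 and 90.5. H1f0, the replacement H1, stood at 350 and 335 TPM, above the sum of all 6 H1 members in both libraries. H1fx was at 2.04 and 3.45, and H1foo, H1fnt and Hils1 had no count. Most replacement mRNAs are known to carry poly(A) tails, though H2afx also makes a stem-loop form without one, and whether the tail affects these ratios was not tested.

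**Figure D4:**
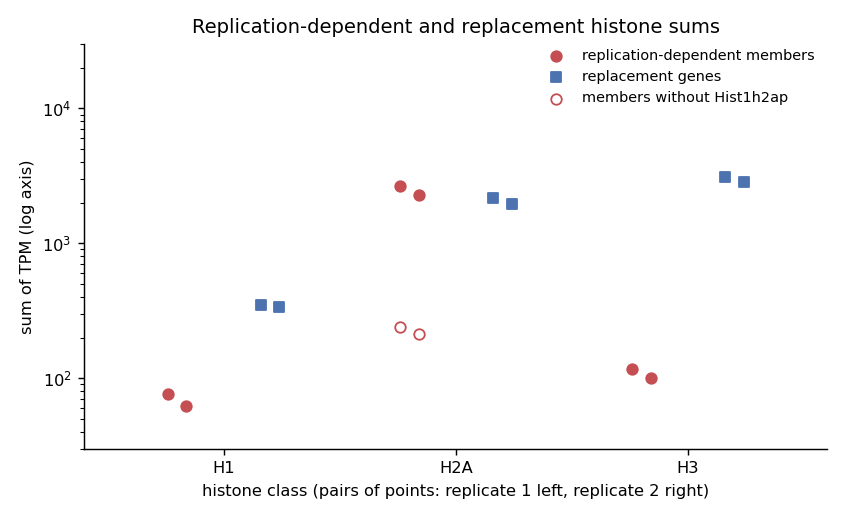
Summed TPM on a log axis for replication-dependent members (red circles) and replacement genes (blue squares) of H1, H2A and H3, with replicate 1 left and replicate 2 right in each pair and open circles for H2A members without Hist1h2ap. Members lie below replacement genes in H1 and H3 and slightly above in H2A, where the sum falls to 239 and 214 TPM without Hist1h2ap.

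Genes that regulate, process and deliver histones were read as lists. Of 45 listed genes, 44 were in the tables and 43 were detected, beside 62% of all protein-coding genes. In the processing list, 19 of 20 genes were detected. Slbp, the stem-loop binding protein, stood at 161 and 142 TPM, the cleavage nuclease Cpsf3 at 82.7 and 74.7, and Srrt, an RNA-processing adaptor, at 69.0 and 63.8. The U7 particle proteins Lsm10 and Lsm11 stood at 49.4 and 46.8 and at 3.74 and 3.84. Casp8ap2, a factor of histone mRNA processing, stood at 31.4 and 26.0, and Zfp473, a zinc finger protein of the U7 complex, at 1.53 and 1.70. The U7 RNA gene Rnu7 was listed at 0, but its 62-base transcript lies below the size limit of 200 nt, so this 0 carries no information on it.

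Among regulators of histone transcription, all 10 listed genes were detected. The kinase Cdk2 was at 51.9 and 48.4 TPM, its cyclins Ccne1 and Ccne2 at 47.8 and 39.1 and at 30.9 and 29.3, and E2f1, the lowest by mean, at 4.93 and 8.14, where E2f2 was lower in replicate 2 at 6.37. Npat, the coactivator that cyclin E and Cdk2 act on at histone loci, stood at 9.98 and 9.04. All 14 chaperone genes were detected, from the histone-binding proteins Rbbp7 (803 and 775) and Rbbp4 (253 and 231) and the FACT subunit Ssrp1 (209 and 180) to the H3.3 chaperone Hira (2.91 and 2.99).

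The 2 libraries were close for most members. A member was counted as apart when its TPM differed at least 2-fold, its mean count was at least 10 and its deposited intervals did not overlap. This held for 1 of 53 members with enough counts, against 1.28% of protein-coding genes, and the member was higher in replicate 1, as were 0.613% of genes. No member was apart with replicate 2 higher, against 0.671% of genes. It was the H4 gene Hist1h4j, at 1.76 TPM in replicate 1 and 0.55 in replicate 2, from 34.9 and 10.6 counts. Hist1h3h differed the other way, at 2.64 and 5.79 TPM, with intervals that overlapped. Genes listed at 0 in 1 library only were Hist1h2ad, Hist1h4m and Hist1h2br, with at most 0.84 TPM in the other library. For Hist1h2br this leaves out a transcript under another identifier, which was above 0 in both libraries.

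Smaller differences were counted in the same way. Of the 48 detected members, 29 (60.4%) were higher in replicate 1, near the background of 53% of detected protein-coding genes. The median log2 ratio of replicate 2 to replicate 1 was -0.21 over those members and -0.01 over detected protein-coding genes. Intervals lay apart with replicate 1 higher in 7 detected members (14.6%), near the background of 12.2%, and these were Hist1h2ap, Hist1h4d, Hist1h1e, Hist1h1b, Hist3h2a, Hist2h3b and Hist1h2be. They lay apart with replicate 2 higher in 1 member, Hist1h2bc, against 13.2% of genes. Class sums were 1.17-fold to 1.23-fold higher in replicate 1 for H1, H2A, H3 and H4, and 0.969-fold for H2B.

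**Figure D5:**
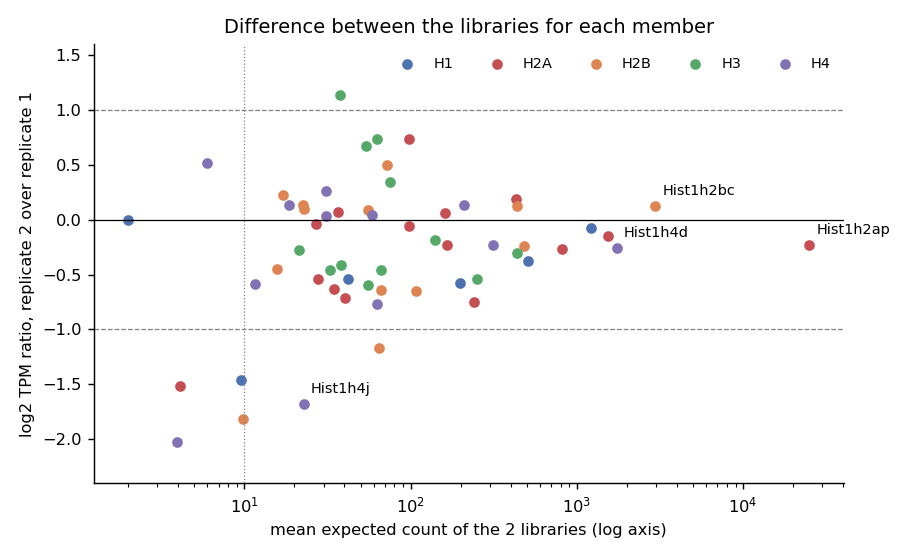
Log2 ratio of TPM in replicate 2 to replicate 1 against the mean expected count (log axis) for the members with TPM above 0 in both libraries, coloured by class, with dashed lines at a 2-fold difference and a dotted line at 10 counts. Members with a mean count of at least 100 lie between the dashed lines, and Hist1h4j, at -1.68, is the member counted as apart.

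Other features of the libraries moved alongside. All 10 listed S-phase genes, such as Pcna and the Mcm genes, were higher in replicate 1, by a median of 1.16-fold, against the 53% of detected protein-coding genes. Other histone-related lists were also mostly higher there, apart from replacement H1, with 1 gene higher in each library. In the processing list, 13 genes were higher in replicate 1 and 6 in replicate 2, and in the transcription list 8 and 1. Higher in replicate 1 were 6 of 6 replacement H2A genes by a median of 1.05-fold and 4 of 4 replacement H3 genes by 1.12-fold. So were 12 of 14 chaperones, by 1.13-fold. In these bulk samples fewer dividing cells and less RNA per cell cannot be told apart. Total expected counts were 42040766 and 41480301. All 6 intestinal markers were detected, from 36.0 to 3826 TPM in replicate 1 and from 39.4 to 5228 in replicate 2. All 3 markers of pancreas, 3 of liver and 4 of red cells were also detected, with sums of 2305 and 3218 TPM for pancreas, 416 and 294 for liver, and 21574 and 17654 for red cells. Of the intestinal markers 5 of 6, and of the pancreas markers 3 of 3, were higher in replicate 2. All liver and red cell markers were higher in replicate 1. The part of these tissues in the members' levels was not tested.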

How the data were processed

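Total RNA sequencing of 2 libraries of embryonic mouse intestine was analysed from gene and transcript tables. The authors deposited expected counts per gene, TPM, posterior mean TPM, lower and upper TPM bounds, and each transcript's percent of its gene, per the file headers. The confidence level of the bounds is not stated, and some bounds lie below the TPM value itself. The tables use mm10 with GENCODE M4, per the text deposited beside them. The aligner, the quantifier and the strand setting were not given in the sources used here. Some members share transcript sequence with an overlapping gene on the same strand, such as Hist3h2a with Trim17 and Hist1h2be with Hist1h1e. Reads in these shared stretches cannot be told apart, with or without strand.

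Identifiers were matched without version to GENCODE M21 for symbols, types, coordinates and transcript sequences. Coordinates are those of M21 on mm10. The members and lists were chosen with earlier results of these data known. Members with a mean TPM of at least 10 and the highest member of each class are named with both values, others by range or where a count of 5 or fewer is given. Means and SDs are over 2 libraries and no p-value was computed. The total of 42040766 and 41480301 counts sets the counting precision. The call between libraries was tested on simulated data with larger changes and higher counts than its limits, and without reads shared between genes. It was not tested at those limits. Alternatives covered the TPM estimate, division by length, detection limit, fold, count minimum, scaling, intervals, libraries and window size. Python 3.11.15, numpy 2.4.6, pandas 2.3.3 and matplotlib 3.10.9 were used.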

Additional observations from a re-analysis of the deposited data

How the results depend on the processing

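With posterior mean TPM, every class sum, leading share, log2 ratio and count of detected genes stayed within the SD of the libraries, or within 1.5 times for counts. Without division by length, the class sums became 47.5 (H1), 688 (H2A), 104 (H2B), 30.5 (H3) and 60.1 (H4) counts scaled to library size (CPM), which is another scale, and the leading shares became 62.0% (Hist1h1c), 87.0% (Hist1h2ap), 34.3% (Hist1h3i) and 69.1% (Hist1h4d). The log2 ratio of members to replacement genes became -3.46 for H1 and -6.26 for H3, and turned to -1.18 for H2A. At 5 TPM, 22 members were detected. Members apart between libraries were 2 at 1.5-fold, 0 at a mean count of 100 and 4 with no requirement on intervals. The median share of windows held by 1 gene was 34.2% for 50-base windows. Matching by transcript identifier and leaving out Hist1h2ap or H3f3c were alternatives chosen after seeing the data. The H2B sum was 237 TPM when members were matched by transcript identifier. This matching added Hist2h2bb and single-exon transcripts of Hist1h2br and Hist1h2bq, and 51 members were then detected. The H2A ratio turned to -3.19 without Hist1h2ap, and the H3 ratio was -4.65 without H3f3c in the replacement sum. Leaving out 1 library gave class sums of 62.3 to 76.3 (H1), 2288 to 2669 (H2A), 225 to 232 (H2B), 99.7 to 117 (H3) and 227 to 270.1 (H4), and 48 to 52 detected members. No paired analysis was possible because both libraries belong to the same group. Depth limits members under 10 counts, and shared sequence limits single members at any depth.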

Other observations

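Some histone transcripts stood outside the members matched by gene identifier. Hist2h2bb, an H2B gene, was listed under another gene identifier at 4.49 TPM in replicate 1 and 5.32 in replicate 2. A single-exon transcript of Hist1h2br, likewise under another identifier, was at 2.88 and 1.85, whereas Hist1h2br under its own identifier was at 0 and 0.59. A single-exon transcript of Hist1h2bq under another identifier was at 0.96 and 1.15. Transcripts under the own identifier of Hist1h2be included a single-exon form that overlaps Hist1h1e and has no annotated coding sequence. This form took 78.6% and 72.8% of the gene's level.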
